A study of Mus musculus with 4 samples.

Results

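Genes that make hyaluronan or bind it were followed across the mesenchymal stromal cells (MSC) of the mouse small intestinal and colonic lamina propria (LP). The 6 members were chosen by name from the 28692 genes of the count matrices, with earlier results of these data known. All 6 were found there. They were *Has1* and *Has2*, which encode hyaluronan synthases, *Tnfaip6* and *Hapln1*, whose products cross-link hyaluronan or fasten proteoglycans to it, *Cd44*, which encodes the main hyaluronan receptor of the cell surface, and *Vcan*, which encodes the large hyaluronan-binding proteoglycan versican. The cells came from untreated female C57BL6/Nrj mice aged 8 to 10 weeks, in 2 independent experiments that each pooled 3 mice. Small intestine and colon gave 2 single-cell RNA libraries each, called replicates 1 and 2. Live cells were sorted as CD45- Ter119- CD31- BP3- EpCAM- L1CAM- and Itgb1+ after the muscularis had been removed, so that the libraries hold LP MSC and whatever passed that sort. As mice were pooled, the spread between libraries is that of 2 pools and their processing, and not that of single mice.

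Hyaluronan is a long, unbranched sugar chain that is polymerised at the plasma membrane from UDP-glucuronic acid and UDP-N-acetylglucosamine and extruded into the extracellular space. There it forms a hydrated matrix with proteoglycans of the versican family, which link proteins hold on the chain, and with heavy chains of inter-alpha-trypsin inhibitors, which the *Tnfaip6* product TSG-6 transfers onto it. Fibroblasts (FB) are the main hyaluronan-producing cells of connective tissue, and in the intestine this matrix is known for its role in epithelial repair and in the adhesion of leukocytes.

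The 4 libraries held 14341443 to 52269372 unique molecular identifiers (UMIs, each a count of 1 captured RNA molecule), and 30685 cells were kept of 34983 barcodes. Replicate 1 gave 1828 small intestinal and 2399 colonic cells with medians of 6965 and 8810 UMIs, and replicate 2 gave 14350 and 12108 cells with medians of 2734.5 and 3878 UMIs. The small intestine 2 and colon 2 libraries shared 69 barcodes, and all other pairs shared at most 8. Cells were gated on marker genes that include no member into 4 FB classes (PDGFRαhi FB, CD81+ FB, Fgfr2+ FB and a class marked by *Igfbp5*, *Thy1* (CD90) and related genes, called Igfbp5/CD90 FB), smooth muscle cells (SMC) and pericytes. These 6 classes held 23739 cells (77.4%), while 6071 cells (19.8%) fell in none. *Pdgfra* reached 673 to 2115 CPM (counts per one-million UMIs of its class and library) in PDGFRαhi FB against 133 to 236 in the other FB classes, *Cd81* 353 to 750 CPM in CD81+ FB, and *Fgfr2* 166 to 391 CPM in Fgfr2+ FB. *Thy1* stood at 12.8 and 4.85 CPM in small intestinal Igfbp5/CD90 FB and at 391 and 211 CPM in colonic ones, so that this gate drew on partly different markers in the 2 organs. In the FB classes the summed levels of 7 immune markers were 5.44 to 62.6 CPM, of 7 endothelial markers 6.01 to 66.2 CPM and of 5 mesothelial markers 0 to 7.04 CPM. In colon 1 Igfbp5/CD90 FB 4 plasma cell markers summed to 150 CPM, against 10.4 to 12.5 CPM in that class of the other libraries. The sum of 3 markers of interstitial cells of Cajal reached 234 CPM in PDGFRαhi FB of small intestine 1.

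The clearest pattern lay between the FB classes. *Has1* was highest in CD81+ FB in all 4 libraries and *Tnfaip6* in 3 of them, and both were lowest in PDGFRαhi FB among the FB classes in all 4. *Hapln1* was found mainly in colonic Igfbp5/CD90 FB and, at a lower level, in colonic Fgfr2+ FB. *Vcan* was lower in PDGFRαhi and CD81+ FB than in either other FB class of the same library. Each FB class was compared with the mean of the other FB classes on UMIs summed per library and class, with the library as a block, by the edgeR quasi-likelihood test. A gene was called at an adjusted p below 0.05 over all 12463 genes tested and a difference beyond 1 on the log2 scale. Called members numbered 4 of 6 in PDGFRαhi FB, all lower, where 14.8% of all genes were called and 8.26% called lower, and 2 of 6 in CD81+ FB, where 9.73% were called. They numbered 0 of 6 in Fgfr2+ FB, with 2.40% of genes called, and 1 of 6 in Igfbp5/CD90 FB, with 2.59% called. As the members were chosen with earlier results of these data known, these counts are a description. In SMC and pericytes the levels of *Has1*, *Tnfaip6* and *Vcan* followed the library, with the highest values in small intestine 2.

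**Figure D1:**
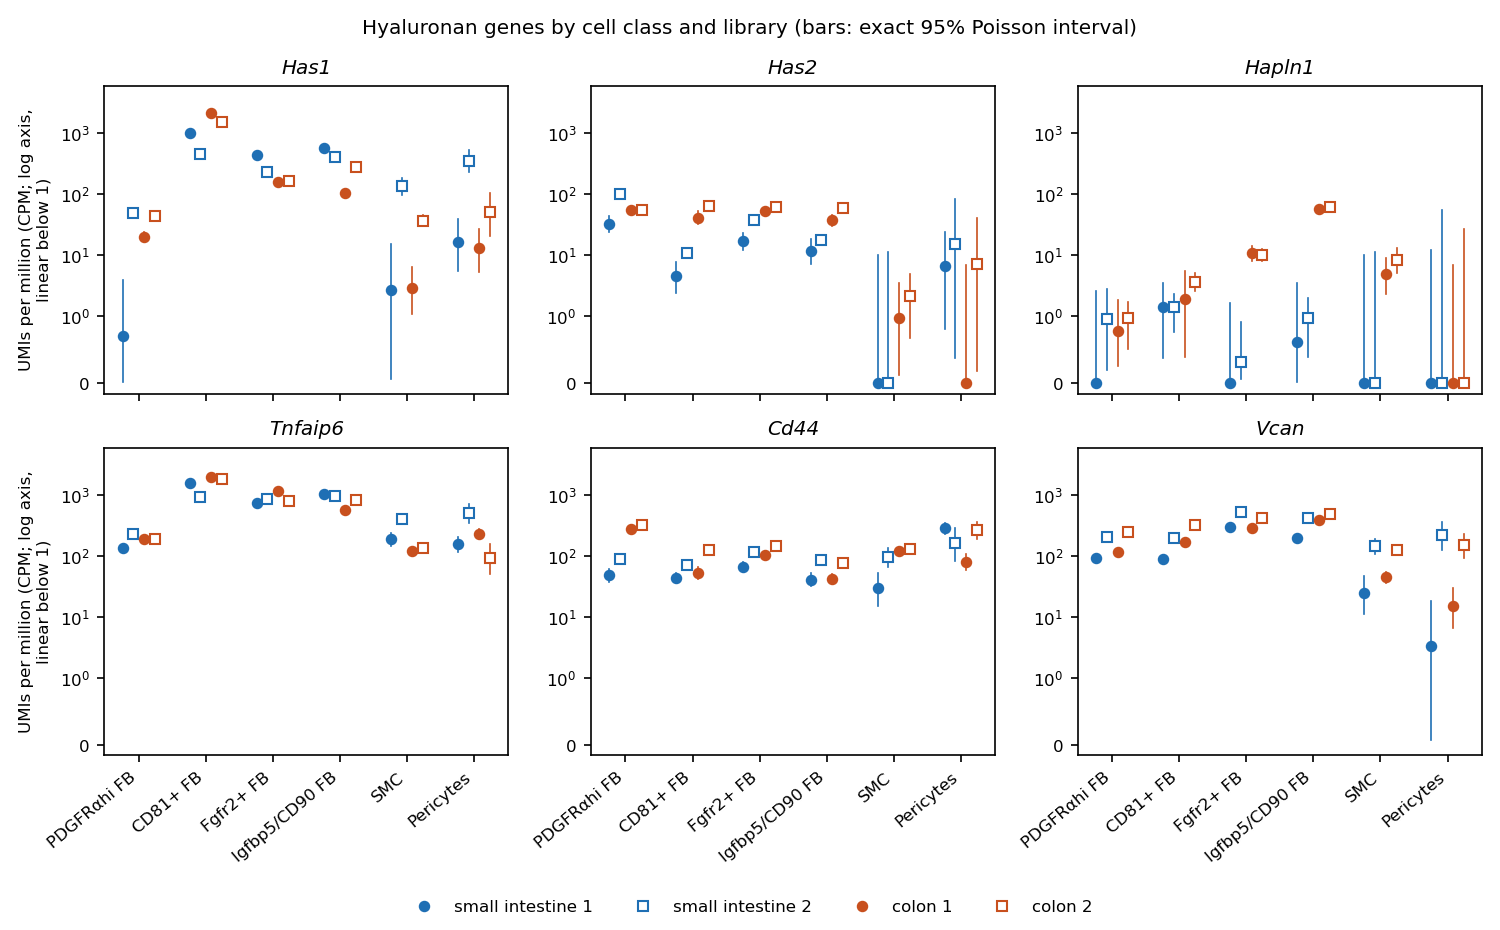
Level of each hyaluronan gene, in CPM on an axis that is logarithmic above 1 CPM and linear below it, in every library of the 4 FB classes, SMC and pericytes. Each point is 1 library, with small intestine and colon in separate colours and exact 95% Poisson intervals as bars. *Has1* in CD81+ FB lies between 458 and 2144 CPM, above every other class of the same library, and *Hapln1* stands out in colonic Igfbp5/CD90 FB at 57 and 62.1 CPM.

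*Has1* encodes 1 of the 3 hyaluronan synthases and lies on the minus strand at chr17:17843323-17855205 (GRCm38). In CD81+ FB it reached 1009 CPM in small intestine 1, 458 in small intestine 2, 2144 in colon 1 and 1554 in colon 2, with a mean of 1291 ± 724 CPM (SD, n = 4). In PDGFRαhi FB of the same libraries it stood at 0.695, 48.1, 19.9 and 43.4 CPM. Every CD81+ value was thus above every PDGFRαhi value. Fgfr2+ FB, with 435, 235, 156 and 168 CPM, and Igfbp5/CD90 FB, with 573, 402, 106 and 276 CPM, lay between them, and their ranges overlapped each other. The log2 difference of CD81+ FB from the other FB classes was 3.53 ± 0.58 (SE, edgeR adjusted p = 0.00131), and that of PDGFRαhi FB was -4.12 ± 0.80 (edgeR adjusted p = 0.00219).

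The share of cells with a *Has1* UMI gave the same order. After each cell had been thinned to 1000 UMIs, 35.7%, 24.3%, 46.9% and 49.8% of CD81+ FB held a *Has1* UMI in small intestine 1, small intestine 2, colon 1 and colon 2. Without thinning the shares were 57.9%, 39.98%, 59.4% and 64.9%. Of the 351 endothelial cells of small intestine 1, which should lack the gene, 0.570% held a *Has1* UMI before thinning, at a median of 4418 UMIs per cell against 8673.5 in the CD81+ FB, and 0% after it. The CD81+ FB share was above the endothelial one in that library. In the colonic libraries, with 234 and 23 endothelial cells, the mean endothelial share was 4.35 ± 6.15% (SD) before thinning and 0% after it. The part of free RNA was not tested. Small intestine 2 held only 1 endothelial cell, so that the same comparison could not be made there.

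*Tnfaip6* encodes TSG-6, the secreted enzyme that cross-links hyaluronan with heavy chains, and lies on the plus strand at chr2:52038009-52056686. Its level in CD81+ FB was 1566 CPM in small intestine 1, 945 in small intestine 2, 1958 in colon 1 and 1855 in colon 2. PDGFRαhi FB held 134, 228, 191 and 187 CPM. Again, no value of the former overlapped the latter. In small intestine 2, Igfbp5/CD90 FB stood at 955 CPM, slightly above the CD81+ FB of that library. Fgfr2+ FB (737 to 1179 CPM) and Igfbp5/CD90 FB (566 to 1032 CPM) overlapped each other and the CD81+ range, and SMC held 119 to 400 CPM. The log2 difference from the other FB classes was 1.78 ± 0.21 in CD81+ FB (SE, edgeR adjusted p = 8.14e-05) and -2.72 ± 0.27 in PDGFRαhi FB (edgeR adjusted p = 1.02e-05). CPM were also summed over 8 activation genes (*Cxcl1*, *Cxcl2*, *Ereg*, *Areg*, *Ptgs2*, *Il6*, *Ccl2* and *Ccl7*). In the same library order this sum was 4281, 3387, 2522 and 5064 in CD81+ FB. PDGFRαhi FB held 1166, 1578, 1989 and 2607. Fgfr2+ FB stood highest in small intestine 2 (4818) and Igfbp5/CD90 FB lowest in colon 1 (983). The part of activation in the class pattern was not tested.

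**Figure D2:**
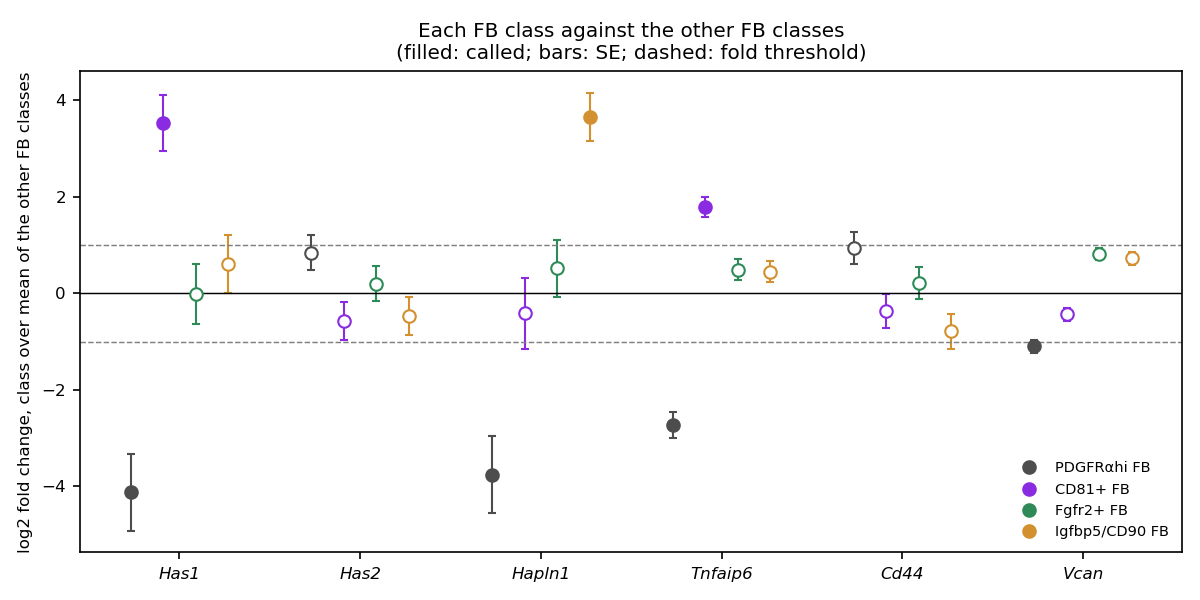
Log2 difference of each FB class from the mean of the other FB classes for the 6 genes, with bars of 1 standard error; filled points passed both thresholds. *Has1* and *Tnfaip6* are raised in CD81+ FB (3.53 and 1.78) and lowered in PDGFRαhi FB (-4.12 and -2.72), and *Hapln1* is raised in Igfbp5/CD90 FB (3.65).

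As *Has1* and *Tnfaip6* were raised in the same class, their promoters are shown for comparison. The 250 bases before each RefSeq start site (GRCm38.p6) are given 5′ to 3′ on the strand of the gene, with matches to 7 searched motifs in capitals. The *Has1* window lies at chr17:17855189-17855438 on the minus strand and the *Tnfaip6* window at chr2:52037863-52038112 on the plus strand.
*Has1*: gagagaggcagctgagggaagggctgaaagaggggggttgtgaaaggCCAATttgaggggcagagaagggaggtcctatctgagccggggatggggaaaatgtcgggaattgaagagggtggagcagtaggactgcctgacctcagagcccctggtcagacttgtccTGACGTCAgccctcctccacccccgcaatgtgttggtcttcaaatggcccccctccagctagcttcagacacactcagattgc
*Tnfaip6*: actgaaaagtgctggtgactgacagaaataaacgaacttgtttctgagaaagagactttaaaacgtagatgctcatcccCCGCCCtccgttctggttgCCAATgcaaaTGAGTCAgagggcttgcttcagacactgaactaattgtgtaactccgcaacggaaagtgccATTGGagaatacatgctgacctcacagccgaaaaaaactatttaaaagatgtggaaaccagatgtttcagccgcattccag
Both windows hold a CCAAT box (CCAAT, or its reverse ATTGG), at 203 to 199 bases before the start of *Has1* and, for *Tnfaip6*, at 152 to 148 and in reverse at 81 to 77 bases before it. CCAAT occurs in 33.9% of 32851 promoters of the same length. The *Has1* window holds the full cyclic AMP response element TGACGTCA at 83 to 76 bases before the start, a motif of 1.55% of promoters. The *Tnfaip6* window holds the AP-1 motif TGANTCA as TGAGTCA at 142 to 136 bases before the start (6.75% of promoters), and a reversed GC box (GGGCGG, in 32.7% of promoters) at 171 to 166. TATAAA (12.4%), CACGTG (6.02%) and the NF-κB motif (7.25%) were searched on both strands as well and matched neither window. No searched motif overlapped another in these windows, and a match in letters describes the sequence and not binding.

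*Has1* and *Tnfaip6* were also found together within cells. In CD81+ FB thinned to 1000 UMIs, cells with a *Has1* UMI held a *Tnfaip6* UMI in 66.4%, 55.3%, 69.1% and 71.4% of cases in small intestine 1, small intestine 2, colon 1 and colon 2. Cells without a *Has1* UMI did so in 46.4%, 37.5%, 29.1% and 32.3%. The share was higher in *Has1*-positive cells in each of the 4 libraries, which is a description of cells that share a library and an RNA pool. Over the 24 sums of 6 classes in 4 libraries, the genes whose level was most like *Has1* were *Gfpt2*, *Col14a1* and *Serpinf1* (Pearson r of log2(CPM + 10) of 0.94, 0.93 and 0.92 among 9471 genes), and *Tnfaip6* reached 0.91. The genes most like *Tnfaip6* were *Arsi*, *Lgi4* and *Dact1* (0.97, 0.91 and 0.91). These sums share libraries, so no test was made.

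Some genes of the enzymes that supply the synthases were raised in the same class, while *Gfpt1*, *Gnpnat1* and *Pgm3* were not called there. Among 39 further genes of the hyaluronan pathway, also chosen with earlier results of these data known, 20 had enough UMIs to be tested between the FB classes. Of these, 7 were called in CD81+ FB, all higher, against 5.27% of all genes called higher there. Of 7 tested genes of synthesis and sugar precursors, 4 were called higher in CD81+ FB, with a median log2 difference of 1.22 against -0.02 over all genes, and 3 were called lower in PDGFRαhi FB, where 8.26% of all genes were. The 4 were *Gfpt2*, whose product starts the route to UDP-N-acetylglucosamine, *Uap1*, whose product ends it, *Ugp2*, which encodes the maker of UDP-glucose, and *Ugdh*, which encodes the enzyme that oxidises it to UDP-glucuronic acid.

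*Gfpt2* reached 265, 183, 388 and 517 CPM in CD81+ FB against 4.17, 14.9, 7.67 and 21.2 CPM in PDGFRαhi FB, in the order small intestine 1, small intestine 2, colon 1 and colon 2. *Ugdh* reached 317, 280, 504 and 1075 CPM in CD81+ FB against 46.6, 50.4, 78.1 and 119 CPM in PDGFRαhi FB. Neither gene overlapped between those classes. The log2 difference of CD81+ FB from the other FB classes was 3.32 ± 0.18 for *Gfpt2* (SE, edgeR adjusted p = 3.01e-07) and 2.07 ± 0.12 for *Ugdh* (edgeR adjusted p = 1.12e-07). It was 1.92 ± 0.09 for *Uap1* (edgeR adjusted p = 1.55e-08) and 1.22 ± 0.09 for *Ugp2* (edgeR adjusted p = 6.01e-07). *Gfpt1*, the other gene of the first step, held 36.7 to 65.0 CPM in CD81+ FB and 43.8 to 57 CPM in PDGFRαhi FB, and these ranges overlapped. *Has3*, the third synthase gene, had 30 UMIs over all FB and was too low to test.

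**Figure D3:**
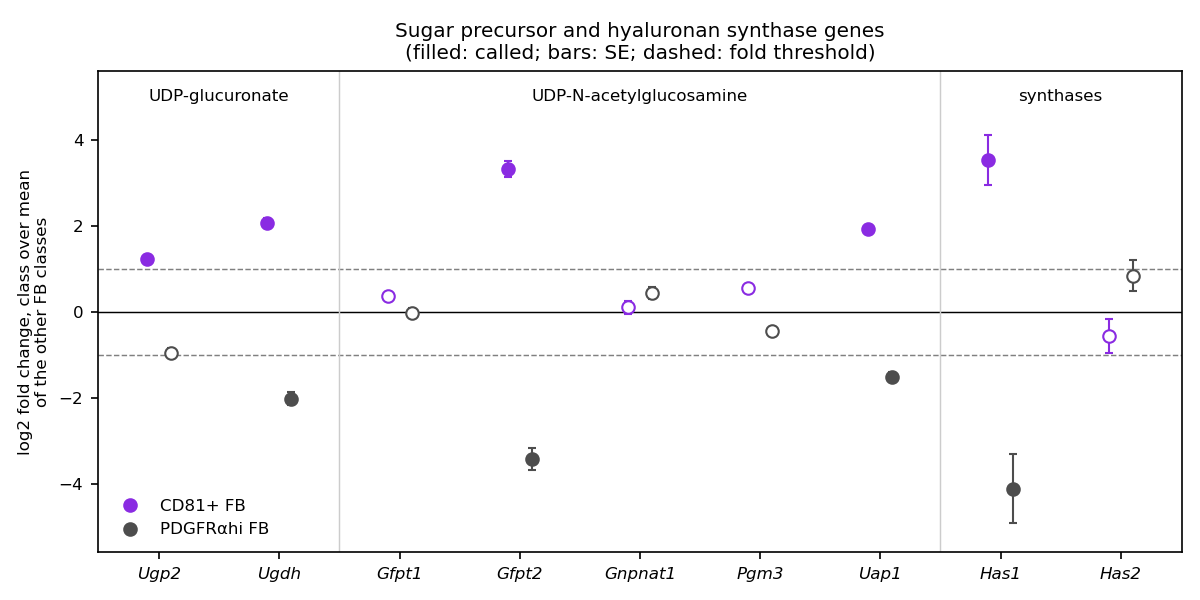
Log2 difference of CD81+ FB and of PDGFRαhi FB from the mean of the other FB classes for genes of sugar-precursor synthesis and for *Has1* and *Has2*; bars are 1 standard error, filled points passed both thresholds and dashed lines mark the fold threshold. *Gfpt2* stands at 3.32 in CD81+ FB and -3.43 in PDGFRαhi FB, *Ugdh* at 2.07 and -2.02, whereas *Gfpt1* lies near 0 in both.

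Genes of the assembled matrix followed in part. In CD81+ FB, *Ptx3*, whose pentraxin product binds TSG-6 and stabilises the hyaluronan matrix, was called at a log2 difference of 2.98 ± 0.31 (edgeR adjusted p = 2.22e-05). Its level there was 7.23, 7.70, 27.9 and 67.3 CPM, with both colonic libraries above both small intestinal ones, and the log2 colon difference was 2.58 ± 0.48 (edgeR adjusted p = 0.129, or 0.0455 without colon replicate 1). *Adamts1* (1.29) and *Adamts5* (1.19), which encode versican-cleaving proteases, were the other genes called higher in CD81+ FB. *Adamts5* lost its call without a low-count filter. It also lost it without colon replicate 1 (0.88, edgeR adjusted p = 0.226) or colon replicate 2 (0.65, edgeR adjusted p = 0.348).

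In PDGFRαhi FB 8 of the 20 pathway genes were called, 7 of them lower, beside 14.8% of all genes called and 8.26% called lower. *Tmem2*, which encodes a hyaluronan-degrading surface enzyme, was the 1 called higher (1.08 on the log2 scale), and it fell below the fold threshold without colon replicate 1 (0.83) and with a stricter gate (0.97). The 7 called lower were *Gfpt2* (-3.43), *Itih3* (-2.63), *Ugdh* (-2.02), *Itih5* (-1.54), *Uap1* (-1.51), *Adamts1* (-1.45) and *Layn* (-1.20), of which *Itih3* and *Itih5* encode inter-alpha-trypsin inhibitor heavy chains and *Layn* a hyaluronan-binding lectin. In Fgfr2+ FB *Itih3* was called higher (1.28) and *Ptx3* lower (-1.78), where 2.40% of all genes were called, and in Igfbp5/CD90 FB *Layn* was called higher (1.02), where 2.59% were. These 3 calls were lost without small intestine replicate 1 (edgeR adjusted p = 0.0719, 0.109 and 0.106, respectively) and under other left-out libraries. *Itih3* and *Layn* also lost theirs with doublets kept, *Ptx3* with a stricter gate, and *Ptx3* and *Layn* without a low-count filter. Genes of hyaluronan breakdown and uptake were low, with 999 UMIs of *Hyal1*, 908 of *Hyal2* and 220 of *Lyve1* over all FB of the 4 libraries.

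The next question was whether the same FB class differs between the organs. Within CD81+ FB *Has1* was higher in both colonic libraries, and the make-up of the class differed as well. In each same-numbered pair of libraries, which also shared a version of the Cell Ranger software, *Has1* was 2.13-fold and 3.40-fold higher in colonic CD81+ FB, and both colonic values were above both small intestinal ones. The log2 difference of 1.17 ± 0.48 did not pass the test (edgeR adjusted p = 0.567). CD81+ FB that carry *Pi16* and related markers made up 10.8% (37 cells) and 7.87% (263 cells) of the class in small intestine 1 and 2. They made up 42.0% (87 cells) and 51.5% (1304 cells) in colon 1 and 2. *Has1* reached 2721, 1026, 3102 and 1939 CPM in these *Pi16*+ cells against 787, 387, 1436 and 1005 CPM in the *Ackr4*+ *Grem1*+ cells of the class, in the order small intestine 1, small intestine 2, colon 1 and colon 2. The former was higher within each library. Fitted apart, the log2 colon difference of *Has1* was 0.37 ± 0.51 in the *Pi16*+ cells (edgeR adjusted p = 0.9996, with 0.168% of genes called) and 0.89 ± 0.45 in the *Ackr4*+ *Grem1*+ cells (edgeR adjusted p = 0.832, with 0.215% called), and these fits were chosen after the values had been seen.

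In the 2 FB classes next in level the direction was the other way. *Has1* was 2.79-fold and 1.40-fold higher in small intestinal than in colonic Fgfr2+ FB of replicates 1 and 2, and 5.39-fold and 1.45-fold higher in small intestinal Igfbp5/CD90 FB. Neither class passed the test (log2 colon differences of -0.995 ± 0.36 and -1.40 ± 0.55, edgeR adjusted p = 0.463 and 0.429), but the latter did without colon replicate 2 (-2.34, edgeR adjusted p = 0.0446). The joint test of whether the colon difference varied between FB classes did not call *Has1* (edgeR adjusted p = 0.377), but did so without a low-count filter. Summed over 9 immediate early and heat shock genes, which mark stress during tissue digestion, CD81+ FB held 22528, 29238, 41803 and 47244 CPM in small intestine 1, small intestine 2, colon 1 and colon 2. That sum was higher in colon, as was *Has1* in this class. In Fgfr2+ FB the sum was also higher in colon, at 34517 and 48218 CPM against 18176 and 25925 CPM, whereas *Has1* was lower there, and in Igfbp5/CD90 FB the organs overlapped in it. The activation sum was 3548 and 4334 CPM in small intestinal and 983 and 3093 CPM in colonic Igfbp5/CD90 FB. It was thus lower in colon there, as was *Has1*, while in CD81+ and Fgfr2+ FB the organs overlapped in it. The part of either sum in these results was not tested.

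**Figure D4:**
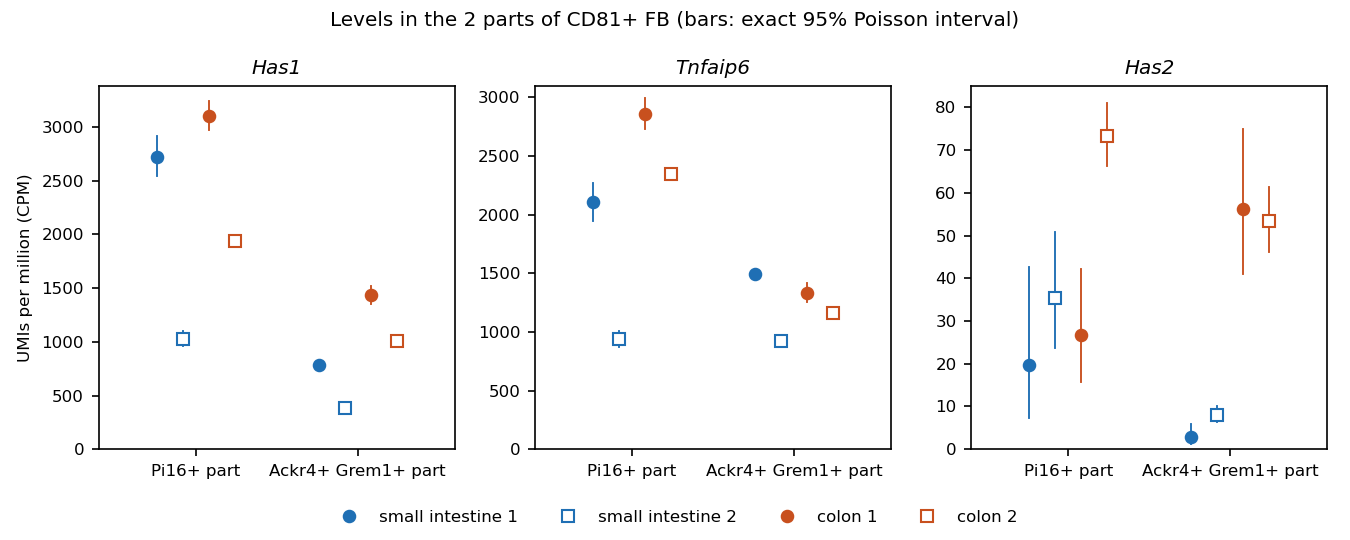
Levels of *Has1*, *Tnfaip6* and *Has2* (CPM, linear axes that differ between the panels) in the *Pi16*+ and the *Ackr4*+ *Grem1*+ cells of CD81+ FB; each point is 1 library and bars are exact 95% Poisson intervals, which cover counting error only. *Has1* is higher in *Pi16*+ cells in each library, and *Has2* in *Ackr4*+ *Grem1*+ cells is 56.2 and 53.3 CPM in colon against 2.82 and 8.08 CPM in small intestine.

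*Has2* encodes the synthase that the embryonic heart depends on and lies on the minus strand at chr15:56665627-56694539. In PDGFRαhi FB it stood at 32.7, 99.8, 54.3 and 55.0 CPM in small intestine 1, small intestine 2, colon 1 and colon 2. CD81+ FB of the same libraries held 4.48, 10.9, 41.2 and 64.8 CPM. In both small intestinal libraries the order of the FB classes was the reverse of that of *Has1*, from PDGFRαhi FB over Fgfr2+ and Igfbp5/CD90 FB down to CD81+ FB, while in colon all 4 FB classes lay between 37.0 and 64.8 CPM. *Has2* did not pass the test in any FB class against the others (PDGFRαhi FB 0.85 ± 0.37, edgeR adjusted p = 0.0943, or 1.28 and 0.0241 without colon replicate 2).

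Colonic *Has2* was 9.19-fold and 5.96-fold higher in CD81+ FB of replicates 1 and 2. It was 3.19-fold and 3.43-fold higher in colonic Igfbp5/CD90 FB, and 3.18-fold and 1.62-fold higher in colonic Fgfr2+ FB. In none of these classes did the organs overlap, whereas in PDGFRαhi FB colon was 1.66-fold higher in replicate 1 and small intestine 1.81-fold higher in replicate 2. The joint test called this difference between the classes (edgeR adjusted p = 4.82e-07), and in it 3 of the 6 members were called against 16.8% of all genes. Within single classes the log2 colon difference was 2.62 ± 0.46 in CD81+ FB, 1.64 ± 0.39 in Igfbp5/CD90 FB and 1.10 ± 0.42 in Fgfr2+ FB, and none passed (edgeR adjusted p = 0.116, 0.184 and 0.502). DESeq2 called the first 2 of these (adjusted p = 1.05e-04 and 0.0460). So did edgeR without a filter on low counts and edgeR with the replicate number as a block.

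The colonic *Has2* of CD81+ FB was also measured in *Ackr4*+ *Grem1*+ cells. It reached 56.2 and 53.3 CPM in colonic cells of this kind against 2.82 and 8.08 CPM in small intestinal ones, with a log2 difference of 3.08 ± 0.44 (edgeR adjusted p = 0.0793). The *Pi16*+ cells held 19.6 and 35.4 CPM in the small intestinal libraries against 26.7 and 73.4 CPM in the colonic ones, and these overlapped. After thinning, 0.585% and 0.808% of small intestinal CD81+ FB and 5.31% and 6.0% of colonic ones held a *Has2* UMI, against 2.92%, 2.75%, 15.9% and 16.8% at their own depth. No *Has2* UMI was found in the 351 endothelial cells of small intestine 1, which allows a share of up to 0.855%, or in the 234 of colon 1, which allows up to 1.28%. The genes with the pattern most like *Has2* were *Elmo1*, *Arsj* and *Arf5* (Pearson r 0.86, 0.85 and 0.84 over the 24 sums).

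*Hapln1* encodes the link protein that clamps versican to hyaluronan, and lies on the plus strand at chr13:89539796-89611652. In Igfbp5/CD90 FB it had 1 UMI in small intestine 1 (0.611 CPM) and 7 in small intestine 2 (0.971 CPM), against 134 in colon 1 (57 CPM) and 466 in colon 2 (62.1 CPM). In Fgfr2+ FB the counts were 0, 3, 51 and 75 UMIs, or 0, 0.313, 10.7 and 10.1 CPM. Neither class overlapped between the organs. CD81+ FB held 1.38 to 3.62 CPM, PDGFRαhi FB at most 0.974 CPM and pericytes, which were few, no UMI, while colonic SMC held 4.85 and 8.35 CPM.

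The log2 colon difference of *Hapln1* in Igfbp5/CD90 FB was 5.96 ± 0.36 (SE, edgeR adjusted p = 0.0249). It was the only edgeR call among the members in any class, where a call needed an adjusted p below 0.05 and a difference beyond 1.5. The gate marker *Stmn2* stood at 2.44 and 0 CPM in small intestinal and at 662 and 684 CPM in colonic Igfbp5/CD90 FB. The paper treats small intestinal Igfbp5+ FB and colonic CD90+ FB as separate though related subsets, so organ and subset cannot be told apart here. In Igfbp5/CD90 FB 0.444% of genes were called higher in colon and 1.00% in either direction. In the pair of replicate 1 the *Hapln1* ratio was 93.2, with a 95% counting interval of 16.4 to 3709 as it rests on 1 small intestinal UMI, and in replicate 2 it was 64.0-fold. The call was lost without small intestine replicate 2 (6.45, edgeR adjusted p = 0.112). All cells that scored highest for Fgfr2+ or Igfbp5/CD90 FB were also summed into 1 class, including cells that the gate had left in none. The *Hapln1* difference was then 5.91 ± 0.50 (edgeR adjusted p = 0.0388, with 0.403% of genes called), a fit chosen after the values had been seen. In Fgfr2+ FB alone the difference was 5.37 ± 0.65 (edgeR adjusted p = 0.0545), with 0.685% of genes called there. DESeq2 called *Hapln1* in Fgfr2+ FB. So did edgeR with cells of at least 1000 genes, without a filter on low counts and with the replicate number as a block. The ratio in that class was at least 8.28 in replicate 1, against a floor of 3 counts in the library without a UMI, and 32.2 in replicate 2, with a counting interval of 10.6 to 160.

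Against the other FB classes, *Hapln1* was called higher in Igfbp5/CD90 FB (3.65 ± 0.49, edgeR adjusted p = 0.00161) and lower in PDGFRαhi FB (-3.75 ± 0.80, edgeR adjusted p = 0.0033). Both calls were lost without colon replicate 1 (edgeR adjusted p = 0.0627 and 0.0530) or colon replicate 2 (edgeR adjusted p = 0.0942 and 0.0531). Thinned to 1000 UMIs, 4.20% and 5.59% of colonic Igfbp5/CD90 FB held a *Hapln1* UMI, against 0% and 0.0796% of small intestinal ones, and at their own depth the shares were 27.9%, 16.8%, 0.474% and 0.279%. Within the colonic class, cells with a UMI of *Stmn2*, a gate marker, held a *Hapln1* UMI in 8.70% and 9.92% of cases after thinning and cells without one in 2.59% and 3.31%. The genes most like *Hapln1* were *Sfrp2*, *Aldh3a1* and *Cntn1* (Pearson r 0.94, 0.88 and 0.84).

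*Vcan* encodes versican and lies 43659 bases from *Hapln1* on the opposite strand, at chr13:89655312-89742509. It did not share the organ pattern of its neighbour. In Igfbp5/CD90 FB it stood at 200, 416, 385 and 495 CPM in small intestine 1, small intestine 2, colon 1 and colon 2, and in Fgfr2+ FB at 300, 534, 290 and 421 CPM. CD81+ FB held 91.0, 197, 168 and 319 CPM and PDGFRαhi FB 91.8, 209, 117 and 246 CPM. The organs overlapped in each of these classes, and replicate 2 was above replicate 1 of the same organ throughout. *Vcan* was called lower in PDGFRαhi FB (-1.10 ± 0.14, edgeR adjusted p = 3.87e-05). It was higher at smaller sizes in Fgfr2+ FB (0.81 ± 0.13, edgeR adjusted p = 0.00231) and Igfbp5/CD90 FB (0.72 ± 0.13, edgeR adjusted p = 0.00414), below the fold threshold. Between the organs its log2 difference in the FB classes ran from -0.18 in Fgfr2+ FB to 0.66 in CD81+ FB, and none of the 6 classes passed the test. Genes most like it were *Cdk14*, *Lman1* and *Fn1* (Pearson r 0.91, 0.88 and 0.88).

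*Cd44* encodes the receptor that ties hyaluronan to the cell surface and lies on the minus strand at chr2:102811141-102901665. In PDGFRαhi FB it stood at 48.7, 89.0, 274 and 326 CPM in small intestine 1, small intestine 2, colon 1 and colon 2. Colon was thus 5.63-fold and 3.67-fold higher in replicates 1 and 2, without overlap. Small intestinal cells of the other FB classes held 40.9 to 119 CPM and colonic ones 42.1 to 145 CPM, and the organs overlapped in each of them. The difference between the classes was called by the joint test (edgeR adjusted p = 1.33e-04), but not without small intestine replicate 2 (edgeR adjusted p = 0.0520).

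Within PDGFRαhi FB the log2 colon difference of *Cd44* was 2.24 ± 0.40 and did not pass (edgeR adjusted p = 0.0888, where 1.18% of genes were called). It passed in DESeq2 (2.24, adjusted p = 4.73e-05) and in edgeR without the filter on low counts (2.28, adjusted p = 2.19e-04). It also passed in edgeR with the replicate number as a block. Without colon replicate 1 the difference was 2.44. After thinning, 4.29% and 8.85% of small intestinal and 20.8% and 25% of colonic PDGFRαhi FB held a *Cd44* UMI, against 32.5%, 17.5%, 79.9% and 58.7% at their own depth. Endothelial cells held one in 1.14% (small intestine 1) and 0% (colon 1) of thinned cells. Colon 2 held 23 endothelial cells. Over both colonic libraries the mean endothelial share was 2.17 ± 3.07% (SD) after thinning and 16.7 ± 19.4% at own depth. Of 3 markers of interstitial cells of Cajal, *Kit* was at most 1.58 CPM in this class, *Ano1* stood at 1.39 and 1.90 CPM in the small intestinal and at 69.0 and 47.7 CPM in the colonic libraries, and the sum with *Etv1* was 234, 202, 171 and 113 CPM. *Ano1* thus moved with *Cd44* while the sum did not, and their part in the result was not tested. The immediate early and heat shock sum was higher in colon here too, at 33663 and 41572 CPM against 12970 and 20857 CPM, and its part in the result was not tested. The genes most like *Cd44* were *Ets1*, *Car2* and *Nfe2l2* (Pearson r 0.81, 0.81 and 0.78).

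**Figure D5:**
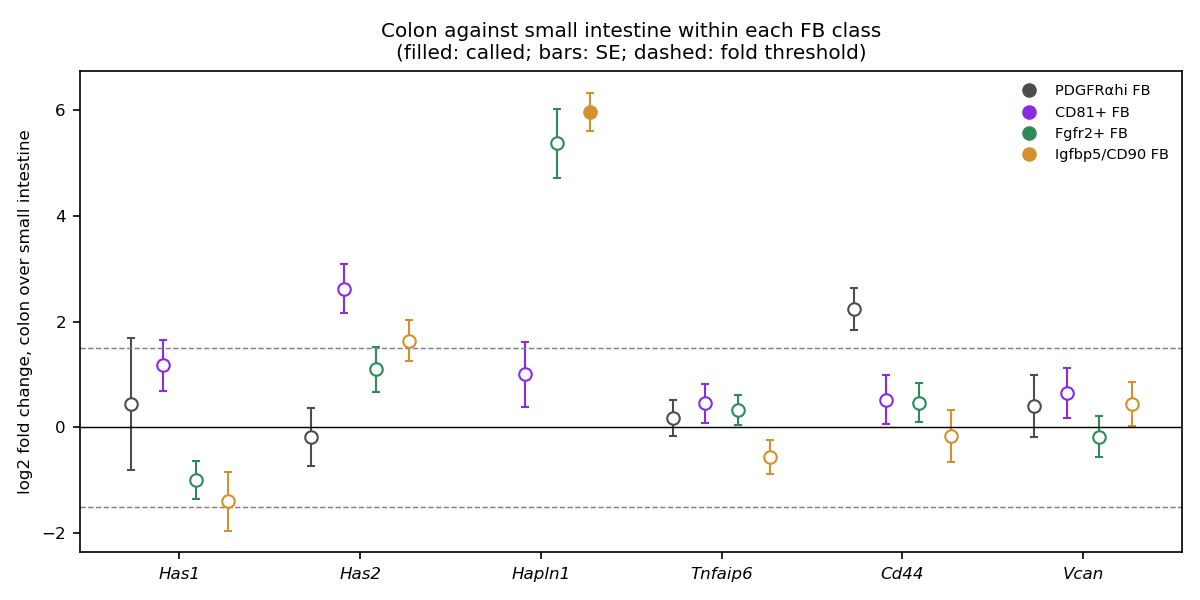
Log2 difference of colon from small intestine for the 6 genes within each FB class, with bars of 1 standard error; the filled point passed both thresholds. *Hapln1* in Igfbp5/CD90 FB (5.96) is the edgeR call. *Hapln1* in Fgfr2+ FB (5.37), *Has2* in CD81+ FB (2.62) and *Cd44* in PDGFRαhi FB (2.24) did not pass the threshold of adjusted p.

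*Tnfaip6* did not pass the test between the organs in any class. Its colonic values in CD81+ FB lay above the small intestinal ones (1.25-fold and 1.96-fold in replicates 1 and 2), and its log2 difference was 0.45 ± 0.37 (edgeR adjusted p = 0.883). Fitted apart, this difference was 0.72 ± 0.44 in *Pi16*+ cells (edgeR adjusted p = 0.978), which were a larger share of the colonic class. It was -0.11 ± 0.37 in *Ackr4*+ *Grem1*+ cells (edgeR adjusted p = 0.9999), and these fits were chosen after the values had been seen. In CD81+ FB 0 of 6 members passed, with 0.282% of all genes called there, and in SMC and pericytes 0 of the 4 members with enough UMIs passed, with 0.367% and 0% of genes called. Of the 39 further pathway genes, 0 were called by edgeR between the organs in any class. An unadjusted p below 0.05 was found for 3 of 20 tested in PDGFRαhi FB (12% of all genes), 6 of 19 in CD81+ FB (9.02%), 1 of 19 in Fgfr2+ FB (9.71%) and 3 of 20 in Igfbp5/CD90 FB (11.7%). In SMC it was found for 4 of 16 (8.86%) and in pericytes for 2 of 8 (3.44%). DESeq2 called *Adamts15* and *Itih5* in PDGFRαhi FB, *Adamts5* and *Ptx3* in CD81+ FB, *Adamts4* and *Adamts5* in SMC and none in the other classes.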

How the data were processed

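Single-cell libraries of sorted LP MSC (10x Genomics, 3′ or 5′ chemistry) had been processed by the authors with Cell Ranger on the mm10 build, and the deposited values were UMI counts per gene and barcode. The file headers gave version 3.0.2 for replicate 1 and 3.1.0 for replicate 2. Cells had to hold 500 genes and 1000 UMIs or more and no more than 10% of UMIs from mitochondrial genes, and Scrublet doublets (6, 913, 32 and 580 cells in small intestine 1, small intestine 2, colon 1 and colon 2) were removed. Each cell was assigned by marker scores, with a lead of 0.15 over the next class, and 14.3% of FB lay within 0.15 above that line. UMI counts of each class were added up within a library and tested with edgeR 4.0.16 (filterByExpr, TMM, quasi-likelihood, Benjamini-Hochberg adjustment). DESeq2 1.42.0, other filters and left-out libraries were alternatives. In simulated counts with the real depths (11303 to 11918 genes per FB class), 43% to 67% of 4-fold colon differences were recovered. For each member the 3 genes with the highest Pearson r were named, and of the pathway lists the called genes (at most 8 per comparison) with *Has3*, *Ugdh*, *Hyal1*, *Hyal2*, *Ptx3* and *Lyve1*. Members and lists were chosen with earlier results of these data known. Counting intervals (95%) and floors (3 counts) cover counting error only.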

Additional observations from a re-analysis of the deposited data

Results flagged for a closer look

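The joint test of whether the colon difference varied between the 4 FB classes singled out 3 members and 11 further pathway genes (edgeR adjusted p over 12843 genes, of which 16.8% passed). *Has2* (edgeR adjusted p = 4.82e-07) differed by organ in CD81+, Igfbp5/CD90 and Fgfr2+ FB without overlap and overlapped in PDGFRαhi FB. *Hapln1* (edgeR adjusted p = 1.95e-05) was high in colonic Igfbp5/CD90 and Fgfr2+ FB. *Cd44* (edgeR adjusted p = 0.000133) was higher in colonic PDGFRαhi FB alone among the FB classes without overlap of the organs.

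*Adamts5* (edgeR adjusted p = 2.03e-09) stood at 33.1 and 52.5 CPM in small intestinal and 112 and 195 CPM in colonic CD81+ FB, and overlapped or ran the other way in the other FB classes. *Itih5* (edgeR adjusted p = 4.90e-08) stood at 360 and 443 CPM in small intestinal and 84.5 and 127 CPM in colonic PDGFRαhi FB. *Ptx3* (edgeR adjusted p = 3.65e-05) was higher in colonic CD81+ FB, and *Layn* (edgeR adjusted p = 4.90e-05) in colonic Igfbp5/CD90 FB, at 23.0 and 27.5 CPM against 7.33 and 7.76 CPM. *Adamts15* (edgeR adjusted p = 0.000374), *Ugp2* (edgeR adjusted p = 0.00145), *Gnpnat1* (edgeR adjusted p = 0.00216), *Adamts4* (edgeR adjusted p = 0.00709), *Uap1* (edgeR adjusted p = 0.00854), *Ugdh* (edgeR adjusted p = 0.0116) and *Gfpt1* (edgeR adjusted p = 0.0219) also passed. *Adamts4* stood at 81.6 and 146 CPM in colonic Igfbp5/CD90 FB against 271 and 332 CPM in small intestinal ones.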

How the results depend on the processing

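The 7 member calls between FB classes numbered 7, and were the same 7, when doublets were kept, with cells of at least 1000 genes, with a stricter gate, without a low-count filter and in DESeq2, and 5 to 8 when 1 library was left out. Between the organs 1 pair of member and class was called. The count was 1 with doublets kept or a stricter gate, 2 with cells of at least 1000 genes, 5 without a low-count filter and 5 in DESeq2, and 0 to 3 with 1 library left out. The members called by the joint test numbered 3, as they did with doublets kept and in DESeq2. They numbered 4 with cells of at least 1000 genes or a stricter gate, where *Vcan* was added. Without a low-count filter they numbered 6, with *Has1*, *Tnfaip6* and *Vcan* added.

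The labels share replicate numbers without saying what a number stands for, and with 2 pairs the numbers were not taken to pair the samples. Deviations of same-numbered libraries from their group means correlated at 0.806, 0.769, 0.830 and 0.767 in PDGFRαhi, CD81+, Fgfr2+ and Igfbp5/CD90 FB. Under the replicate block, 6 pairs of member and class were called between the organs, the added ones being *Has2* in CD81+ and Igfbp5/CD90 FB, *Cd44* in PDGFRαhi FB, *Hapln1* in Fgfr2+ FB and *Has1* in SMC. Over all genes the block raised the calls to between 471 and 846 in the FB classes.

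Directions turned for differences that passed no test. Between FB classes, DESeq2 gave 0.26 for *Hapln1* in CD81+ FB, -0.28 for *Hapln1* in Fgfr2+ FB and 0.030 for *Has1* in Fgfr2+ FB, which cells of at least 1000 genes put at 0.037. With 1 library left out these ran from -1.0 to 0.59 (*Hapln1*, CD81+ FB) and -0.37 to 0.21 (*Has1*, Fgfr2+ FB). Between the organs they ran from -0.27 to 1.0 (*Cd44*, CD81+ FB), -0.76 to 0.47 (*Cd44*, Igfbp5/CD90 FB), -0.55 to 0.31 (*Vcan*, Fgfr2+ FB) and, in PDGFRαhi FB, -0.46 to 5.64 (*Has1*), -0.75 to 0.88 (*Has2*), -0.16 to 0.63 (*Tnfaip6*) and -0.31 to 1.15 (*Vcan*). In classes fitted after the data were seen, the *Pi16*+ part gave -0.13 (*Cd44*, CD81+ FB), the *Ackr4*+ *Grem1*+ part -0.11 (*Tnfaip6*, CD81+ FB), and the sum of Fgfr2+ and Igfbp5/CD90 FB gave 0.30 (*Cd44*), -0.030 (*Tnfaip6*) and 0.11 (*Vcan*). The cause was not tested.

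Over all genes, colon calls in the FB classes ranged from 137 in PDGFRαhi FB to 33 in CD81+ FB and with 1 library left out from 0 to 306 and 0 to 120. With 2 libraries for each organ and 33 pericytes in the smallest sum, a member near the threshold between the organs was not resolved.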
